A study of Mus musculus with 10 samples.

Results

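The 47 genes described here are the protein-coding neighbours of Map3k12 on mouse chromosome 15, the gene that encodes the dual leucine zipper kinase DLK. They are a given list of genes flanking Map3k12, 21 on the side of Pcbp2 and 26 on the side of Tarbp2, and reach 21 and 27 steps from Map3k12 when genes are counted in the order RefSeq gives them on GRCm38.p6. Between the outermost neighbours that table holds 48 protein-coding genes besides Map3k12, and Gtsf2, whose probe did not pass the filter on dim spots, is the only 1 of them not among the 47. The whole array named 20140 genes. Adult hippocampal RNA of 10 mice was hybridised on 2-colour Agilent arrays, 1 mouse per array: 5 DLK conditional knockout (cKO) mice and 5 DLK wild-type (WT) mice. Both genotypes had been on a tamoxifen diet for 3 weeks. The sample was labelled with Cy5 and 750 ng of it was hybridised, against the Universal mouse reference (Stratagene), labelled with Cy3, on every array. For these mice, sex, strain, recombinase driver and deleted exons were not given in the labels. The hippocampal label was checked on 9 marker genes of its principal cells, such as Prox1 of dentate granule cells and Wfs1 of CA1 pyramidal cells, and all 9 were well above background on all 10 arrays. So were all 7 striatal and all 11 choroid plexus markers, so detection alone does not set hippocampus apart from tissue beside it.

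DLK is a mitogen-activated protein kinase kinase kinase that relays axonal injury and trophic stress to JNK in neurons. A targeted allele can affect genes beside it. DNA of the strain in which the allele was made stays linked to it through breeding, and recombination sites or other inserted sequence can disturb the promoters, terminators or enhancers of genes close by. Genes next to the target are therefore commonly inspected when a knockout is profiled. Such effects can appear in cKO minus WT only where the WT mice lack the linked DNA or inserted sequence. The labels do not say whether the WT mice carried an unrecombined conditional allele. This stretch of chromosome 15 runs from the type II and type I keratin genes Krt8 and Krt18, through Map3k12, across the HoxC cluster of homeobox genes, to Pde1b and Ppp1r1a, which encode signalling proteins of forebrain neurons.

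The immediate neighbours on either side are Pcbp2, a poly(C)-binding protein that regulates messenger RNA stability and translation, and Tarbp2, the double-stranded RNA-binding partner of Dicer. Map3k12 and Tarbp2 are transcribed away from each other, and in the RefSeq promoter table of build GRCm38.p6 the outer start site of Map3k12 lies 1188 bases from that of Tarbp2. Their promoter windows and that of Pcbp2 are shown because Tarbp2 and Pcbp2 are the genes next to Map3k12 in gene order. Each window runs from 250 bases before to 50 after the start site. They need not be the promoters nearest in bases, and Npff, the gene after Tarbp2, had no window in that table. Capitals mark GGGCGG, the GC box, and CCAAT, each on either strand. The windows are Map3k12 at chr15:102516955-102517254 on the minus strand, Tarbp2 at chr15:102517942-102518241 on the plus strand and Pcbp2 at chr15:102470289-102470588 on the plus strand.
Map3k12: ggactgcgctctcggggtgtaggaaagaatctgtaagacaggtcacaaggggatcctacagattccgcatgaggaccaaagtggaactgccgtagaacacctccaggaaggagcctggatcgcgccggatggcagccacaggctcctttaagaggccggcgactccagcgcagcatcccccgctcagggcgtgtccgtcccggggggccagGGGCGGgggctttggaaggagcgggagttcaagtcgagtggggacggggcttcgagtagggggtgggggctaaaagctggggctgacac
Tarbp2: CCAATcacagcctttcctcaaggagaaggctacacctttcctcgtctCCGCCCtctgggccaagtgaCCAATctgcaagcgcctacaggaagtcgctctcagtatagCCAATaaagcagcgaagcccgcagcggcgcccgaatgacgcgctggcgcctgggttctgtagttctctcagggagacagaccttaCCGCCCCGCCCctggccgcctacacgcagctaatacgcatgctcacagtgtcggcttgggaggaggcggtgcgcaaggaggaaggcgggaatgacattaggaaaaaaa
Pcbp2: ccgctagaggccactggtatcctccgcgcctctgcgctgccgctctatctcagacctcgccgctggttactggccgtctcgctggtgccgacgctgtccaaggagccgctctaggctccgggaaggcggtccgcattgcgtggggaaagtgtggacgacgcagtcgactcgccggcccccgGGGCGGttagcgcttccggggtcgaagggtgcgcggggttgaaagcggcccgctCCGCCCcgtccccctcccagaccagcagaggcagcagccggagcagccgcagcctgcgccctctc
The Map3k12 window held 1 GC box and no CCAAT. The Tarbp2 window held 3 GC boxes, of which a pair overlaps, and 3 CCAAT matches, and the Pcbp2 window held 2 GC boxes and no CCAAT. A GC box was present in 27 of 40 promoter windows of the neighbours (67.5%), against 35.7% of the 32851 windows of this length in the table. CCAAT was present in 14 of the 40 (35.0%), against 37.4% of all windows. Windows were found for 32 of the 47 genes, and some genes have several.

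Of the 47 neighbours 45 had a probe, with 52 probes in all, and no probe was named for Atf7 or Zfp740. A gene was tested where the Cy5 signal of its probe was well above background, by the scanner software's call, on at least 5 of the 10 arrays. This left 39 neighbours. The other 6 with a probe were Hoxc5, Hoxc6, Hoxc8, Hoxc10, Hoxc11 and the erythroid factor gene Nfe2. Values are log2 ratios of sample over reference, and differences are cKO minus WT. The arrays had median Cy5 signals of 146 to 202, with backgrounds of 29 to 31, and any pair of them correlated at 0.980 to 0.996 across features. The labels do not say how mice relate to litters, so p-values measure the spread between these mice. In bulk tissue, fewer cells of a type and less RNA per cell cannot be told apart. The arrays lay on 3 slides, of which slide 2 alone held both genotypes, with cKO replicate 2 and 3 WT mice. A difference within slides therefore rests on that 1 cKO mouse.

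The expression of Map3k12 was much lower in cKO mice, and its neighbours stayed within narrow limits. The log2 ratio of Map3k12 was 0.64, 0.11, 0.64, 0.68 and 0.48 in cKO mice, against 2.11, 1.76, 1.74, 1.87 and 2.15 in WT mice. All 5 cKO values lay below all 5 WT values. The Map3k12 log2 difference was −1.41 with an SE of 0.12, or 0.375-fold (95% interval 0.314 to 0.449-fold), at a limma adjusted p of 0.000975. The exact two-sided permutation p was 0.00794, the smallest that 5 against 5 mice allow. The Map3k12 spot of cKO replicate 2 stood apart in the reference channel, with a Cy3 signal of 314 where the other 9 arrays had 102.5 to 128. In Cy5 the same spot gave 390.5, against 157.5 to 253 in the other cKO mice and 495 to 746 in WT mice, so its lowest ratio of all came with the brightest sample signal among cKO mice. Without that mouse the difference was −1.31, and the value within slide 2, −1.80, rests on it. None of the 39 neighbours passed an adjusted p of 0.05 in limma, where 0.00424% of the 23574 features did, namely Map3k12 alone. At an unadjusted p under 0.05 there were 2 neighbours, 1 higher and 1 lower in cKO, or 2 of 39 against 3.86% of all features (2.83% higher and 1.03% lower). The groups overlapped for all 39 neighbours, whereas they did not overlap for 0.768% of the features with 10 values (0.525% with cKO higher and 0.243% with cKO lower). The differences of the neighbours lay between −0.17 and 0.18. Their median was −0.0052, against 0.0083 over all other features, and the median size of a difference was 0.0413, against 0.0463. The 95% interval lay within 1.5-fold either way for all 39 neighbours, as for 98.5% of all features. Intervals apply to 1 probe per gene and to ratios that the background offset pulls towards 0, most at dim spots.

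**Figure D1:**
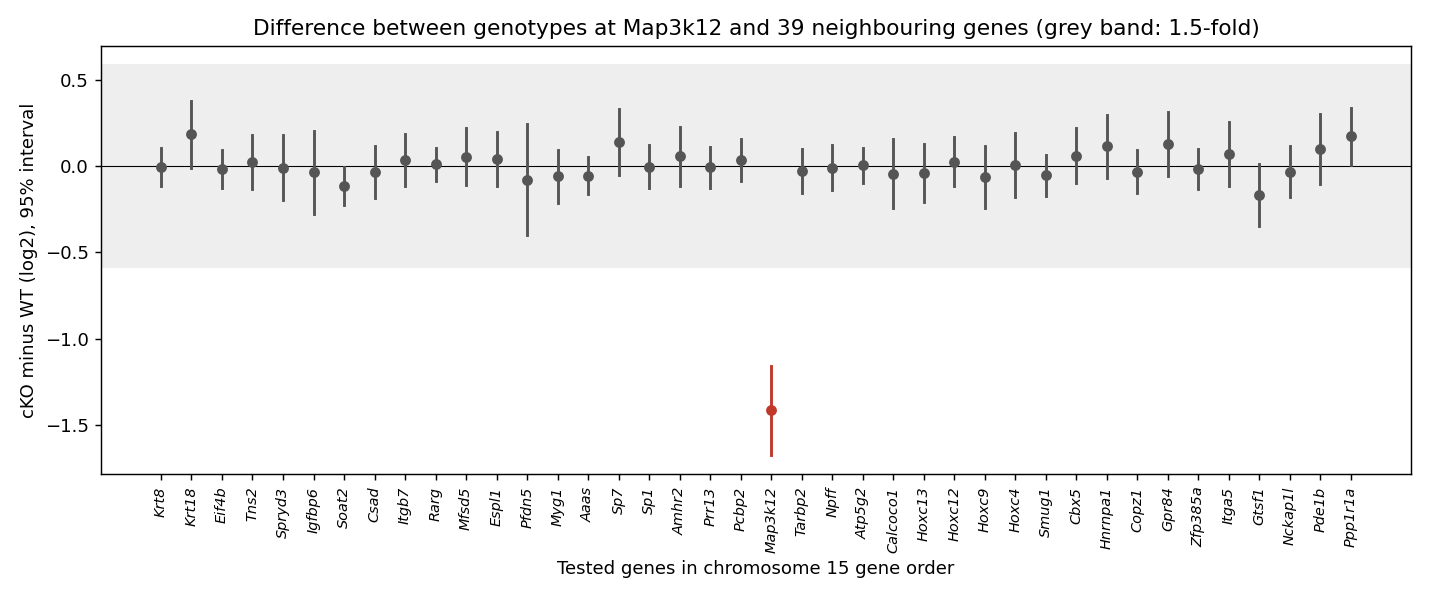
Difference between genotypes (cKO minus WT, log2, points) with the 95% interval (lines) for Map3k12 and the 39 tested neighbours in chromosome 15 gene order; the grey band marks 1.5-fold either way. Map3k12 stands at −1.41, and the intervals of the neighbours all lie within the band.

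The genes next to Map3k12 had nearly the same values in both genotypes. Tarbp2 had log2 ratios of −1.33, −1.14, −1.24, −1.21 and −1.17 in cKO mice, against −1.29, −1.24, −1.16, −1.20 and −1.06 in WT mice. The groups overlapped throughout, and the difference was −0.03 (SE 0.06, 95% interval −0.16 to 0.10). Pcbp2 had −0.87, −0.86, −0.94, −0.92 and −0.85 in cKO mice, against −0.79, −1.03, −0.98, −0.93 and −0.89 in WT mice. Here the cKO mice lay inside the WT range, and the difference was 0.04 (SE 0.06, interval −0.09 to 0.16). The other Pcbp2 probe differed by 0.05 (SE 0.08). The next gene after Tarbp2 is Npff, which encodes the precursor of neuropeptide FF, a peptide that modulates opioid signalling. Npff had log2 ratios of 0.41, 0.58, 0.44, 0.31 and 0.46 in cKO mice, against 0.51, 0.33, 0.45, 0.46 and 0.49 in WT mice, a difference of −0.01 (SE 0.06, interval −0.14 to 0.12). The lowest and the highest value both belonged to cKO mice. After Pcbp2 comes Prr13, a gene for a small proline-rich protein, at −0.01 (SE 0.06). On slide 2 these 4 genes differed by 0.10 (Tarbp2), 0.06 (Pcbp2), 0.15 (Npff) and 0.08 (Prr13), values of 1 cKO mouse that say little about genotype.

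**Figure D2:**
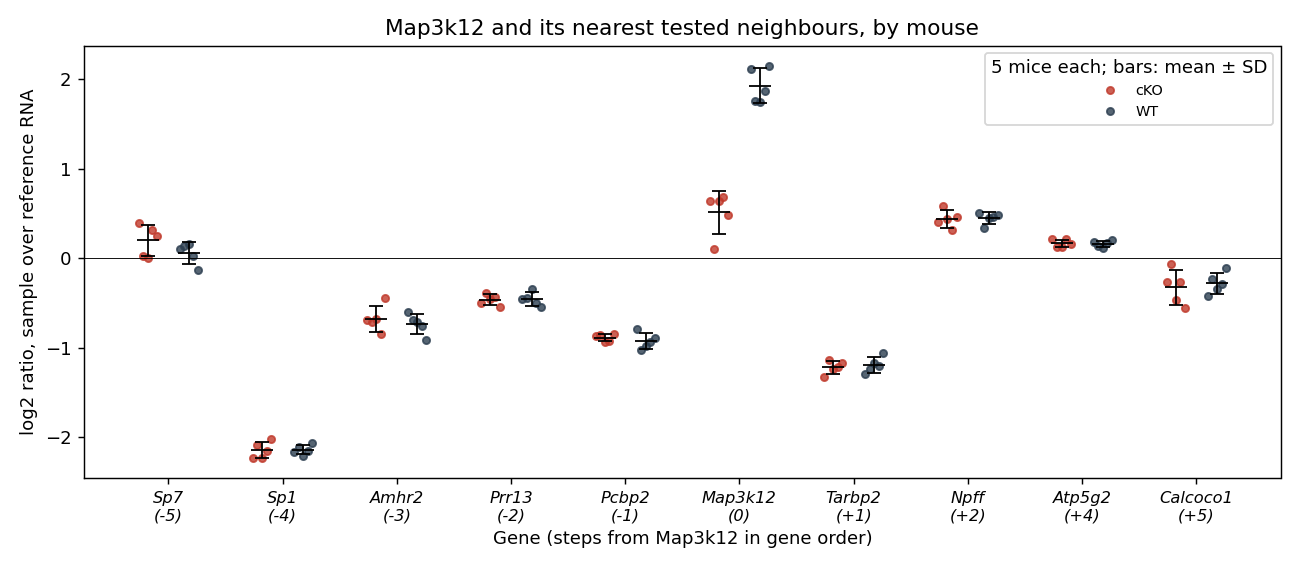
Log2 ratio of sample over reference for Map3k12 and its nearest tested neighbours, up to 5 steps away on either side, with 1 point per mouse and the mean ± SD of 5 cKO and 5 WT mice. The genotypes separate at Map3k12 and overlap at the 9 other genes.

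Further out, within 5 steps of Map3k12, Amhr2, the type II receptor of anti-Müllerian hormone, differed by 0.06 (SE 0.08). Sp1, a ubiquitous activator that binds GC boxes, differed by −0.0035 (SE 0.06), with ratios of −2.14 ± 0.09 in cKO and −2.14 ± 0.05 in WT mice (SD, n = 5 each). Sp7, the osteoblast factor osterix, differed by 0.14 (SE 0.09, interval −0.05 to 0.33), and by 0.57 with plain background subtraction. Atp5g2 encodes a c subunit of the mitochondrial ATP synthase. It was among the most precise measurements, at 0.17 ± 0.04 in cKO and 0.16 ± 0.04 in WT mice (SD, n = 5 each), with a difference of 0.0053 (SE 0.05). Its dimmer probe differed by −0.01 (SE 0.06). Calcoco1, which encodes a coiled-coil coactivator and autophagy receptor, differed by −0.04 (SE 0.09), and by 0.25 on slide 2, where the cKO mouse had −0.06 and the WT mice −0.42 to −0.23. The median size of a difference was 0.0272 over the 9 genes tested within 5 steps of Map3k12, 0.0422 over the 17 within 10 steps, 0.0351 over the 15 between 11 and 20 steps and 0.0709 over the 7 beyond. Across the 39 neighbours the size of the difference had a Pearson r of 0.39 and a Spearman rho of 0.288 with the number of steps. The medians did not rise evenly with distance, and the highest was that of the 7 outermost genes. These genes share arrays and differ in brightness, and the correlation is a description across genes.

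The 2 neighbours at an unadjusted p under 0.05 were Ppp1r1a and Soat2, on opposite sides and far from Map3k12. Ppp1r1a, the outermost gene, encodes inhibitor 1 of protein phosphatase 1, which protein kinase A activates. Its log2 ratio was 3.04, 2.80, 2.95, 3.11 and 3.02 in cKO mice, against 2.85, 2.84, 2.59, 2.87 and 2.91 in WT mice. Of the 5 cKO mice 4 lay above all WT mice, and cKO replicate 2 was within the WT range. The difference was 0.17 (SE 0.08, unadjusted p = 0.0405, limma adjusted p = 0.99995), 0.33 with the scanner software's processed signals and 0.46 when spots marked non-uniform stayed in the background fit. With the Cy5 channel alone it was 0.066 (unadjusted p = 0.458 in limma), and on slide 2 it was −0.05. The reference signal at this spot was low, at 56 to 77. Soat2 encodes an enzyme that esterifies cholesterol. Its log2 ratio was −2.67, −2.54, −2.65, −2.71 and −2.71 in cKO mice, against −2.49, −2.53, −2.54, −2.56 and −2.58 in WT mice. Again 4 of 5 cKO mice lay outside the WT range, here below it, and cKO replicate 2 within it. The difference was −0.12 (SE 0.05, unadjusted p = 0.0392, limma adjusted p = 0.99995). It was −0.19 with plain background subtraction, −0.23 when marked spots stayed in the background fit and −0.01 on slide 2. With the Cy5 channel alone the Soat2 groups did not overlap, which the last section sets beside the share of all features. Without cKO replicate 1 or without cKO replicate 4 no neighbour was at an unadjusted p under 0.05, where 3.13% and 3.30% of all features were. The number was 1 without cKO replicate 3 (Krt18), cKO replicate 5 (Gtsf1) or WT replicate 3 (Krt18), beside 4.46%, 3.60% and 3.08% of all features. Without cKO replicate 2 the groups of both genes no longer overlapped, as for 1.64% of all features.

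The remaining leading differences were small and did not pass. Krt18 encodes a keratin of simple epithelia. It had log2 ratios of −4.01, −3.91, −4.29, −4.01 and −3.74 in cKO mice, against −4.20, −4.15, −4.06, −4.31 and −4.17 in WT mice. Of the cKO mice 4 lay above all WT mice and 1 near the lowest WT mouse. The difference was 0.18 (SE 0.09, interval −0.01 to 0.38, limma adjusted p = 0.99995) and 0.31 on slide 2. Krt8, its usual partner in the filament, differed by −0.0052 (SE 0.05). Choroid plexus is an epithelium too. All 11 of its measured markers were higher in cKO samples, with list means of 1.24 to 2.74 in cKO mice and 0.42 to 1.23 in WT mice, and none of the 11 passed on its own. The cKO mouse with the highest list mean, replicate 5, also had the highest Krt18 ratio. In cKO replicate 3 the list mean was 1.36, above every WT mouse, while its Krt18 ratio was the lowest but 1 of the 10 mice. The relation of the 2 measures and the part of choroid plexus in the Krt18 value were not tested. Among genes with higher values, Hnrnpa1, a splicing regulator, differed by 0.11 (SE 0.08). Its other probe was at 0.02 (SE 0.08). Gpr84, a receptor of myeloid cells for medium-chain fatty acids, differed by 0.13 (SE 0.08). The 7 microglial markers had list means of 2.52 to 2.90 in cKO and 2.35 to 2.73 in WT mice.

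Among genes with lower values, Gtsf1, a factor of the piRNA pathway in germ cells, differed by −0.17 (SE 0.08, interval −0.35 to 0.02). Its spot was dim, with Cy5 signals of 47 to 79 in cKO and 46 to 103 in WT mice, and was well above background on 4 of 5 arrays in each genotype. The difference was −0.36 with plain background subtraction. Pfdn5, a subunit of the prefoldin chaperone that hands actin and tubulin to the chaperonin, differed by −0.08 (SE 0.15). It varied most of all 39 neighbours, with an SD of 0.28 within genotypes where the median SD was 0.111. Its log2 ratio was −0.21, −0.33, 0.21, −0.31 and 0.23 in cKO mice, against 0.21, −0.04, −0.01, 0.27 and −0.44 in WT mice. High and low values occurred in both genotypes, and on slide 2 the cKO mouse lay 0.47 below the mean of the WT mice. Myg1, a mitochondrial and nuclear exonuclease gene next to it, differed by −0.06 (SE 0.07). Rarg, the gamma retinoic acid receptor, varied least, with an SD of 0.029, and stood at −1.88 ± 0.025 in cKO and −1.89 ± 0.032 in WT mice (SD, n = 5 each).

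By role, the neighbours were as follows. Among RNA-binding and translation genes, Tarbp2, Pcbp2, Hnrnpa1 and the initiation factor gene Eif4b, 2 of 4 had higher and 2 lower values, and the 3 Eif4b probes differed by −0.03, −0.04 and −0.02. The 6 tested transcription and chromatin factors outside HoxC had 3 higher and 3 lower values, and the median was 0.0034. Cbx5, the heterochromatin protein HP1 alpha, had a probe at 0.06 (SE 0.07) and a probe at −0.03 (SE 0.07). The zinc finger gene Zfp385a differed by −0.01 (SE 0.05). Of the 8 receptor, ligand and adhesion genes 5 had higher values, among them the integrin chains Itga5 (0.07, SE 0.09) and Itgb7 (0.04, SE 0.07), and Nckap1l, an actin regulator of blood cells, was at −0.03 (SE 0.07). Igfbp6, which binds insulin-like growth factor 2, differed by −0.04 (SE 0.11). Of the 8 enzyme and metabolism genes 4 had higher and 4 lower values, with Csad, an enzyme of taurine synthesis, at −0.03 (SE 0.07), the DNA glycosylase gene Smug1 at −0.05 (SE 0.05) and separase, Espl1, at 0.04 (SE 0.07). Among other genes, the nucleoporin gene Aaas differed by −0.06 (SE 0.05), the coatomer gene Copz1 by −0.03 (SE 0.06) and the membrane transporter gene Mfsd5 by 0.05 (SE 0.08). None of these passed the adjusted threshold.

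Many genes of the region had lower values in hippocampal RNA than in the reference RNA. Such a ratio is relative and need not mean a weak hippocampal signal. Hnrnpa1, with negative ratios on every array, had median Cy5 signals of 10662 in cKO and 10536 in WT mice. The log2 ratio was below 0 on all 10 arrays for 28 of the 39 neighbours, where this held for 35.4% of all features with 10 values. It was above 0 on all 10 arrays for 6 neighbours, where this held for 44.5% of features. The dye effect is part of these ratios, since no dyes were swapped, and it cancels in the difference between genotypes. The highest ratios belonged to Pde1b, a calmodulin-dependent phosphodiesterase, at 3.36 ± 0.09 in cKO and 3.26 ± 0.21 in WT mice, to Ppp1r1a at 2.98 ± 0.12 and 2.81 ± 0.13, and to Spryd3 at 1.76 ± 0.11 and 1.77 ± 0.18 in the same order (SD, n = 5 each). Pde1b is abundant in striatum, and WT replicate 1 had the highest Pde1b ratio (3.64) and the highest mean of 7 striatal markers (3.40, against 2.19 to 2.48 in cKO and 2.03 to 2.38 in the other WT mice). Pde1b differed by 0.10 (SE 0.09), and by 0.19 without that mouse, where its groups did not overlap, as for 1.90% of all features. The part of striatal tissue in these values was not tested. Among the tested neighbours the lowest ratios belonged to Hoxc9, at −5.11 ± 0.14 in cKO and −5.05 ± 0.13 in WT mice, to Krt18, and to Hoxc4, at −3.94 ± 0.16 and −3.94 ± 0.12 (SD, n = 5 each). Hoxc6, which was too dim to be tested, had mean ratios of −6.14 in cKO and −6.07 in WT mice.

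**Figure D3:**
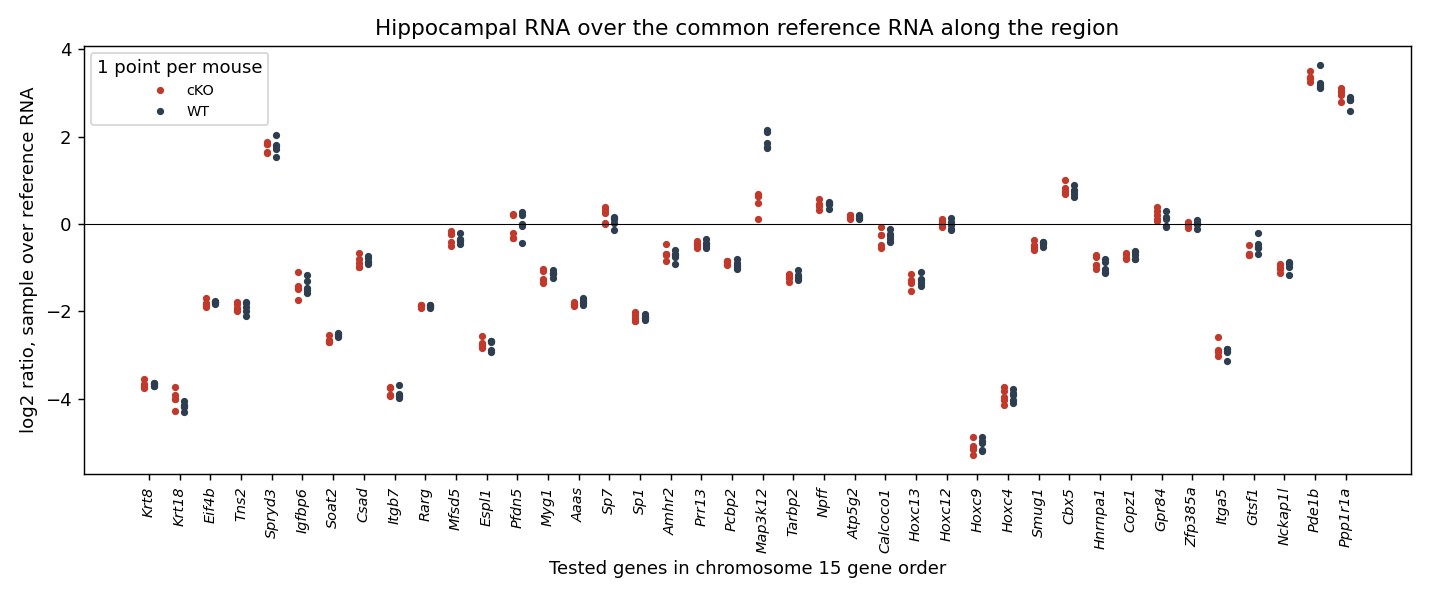
Log2 ratio of sample over reference for Map3k12 and the 39 tested neighbours in chromosome 15 gene order, with 1 point per mouse. Pde1b and Ppp1r1a lie near 3, the keratins, Itgb7, Hoxc9 and Hoxc4 have means below −3, and the genotypes overlap except at Map3k12.

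The 9 HoxC genes encode homeobox factors that pattern the trunk and spinal cord along the body axis, and the forebrain is known to leave them silent. Hoxc13, Hoxc9, Hoxc12 and Hoxc4 were tested, and 2 had higher and 2 lower values, between −0.06 and 0.03. Hoxc12 was well above background on 2 of 5 cKO and 4 of 5 WT arrays, and Hoxc4 on 3 of 5 in each genotype. Hoxc9 and Hoxc13 were well above background on all 10 arrays, with Hoxc13 at Cy5 signals of 123 to 146 in cKO and 138 to 171.5 in WT mice. Hoxc8 and Hoxc11 were well above background on no array. Cy5 signals of Hoxc6 were 43 to 64 in cKO and 51 to 69.5 in WT mice, little above the background of about 29 to 31, while the reference RNA gave 4897 to 5513 at this spot. Hoxc9 likewise had Cy5 signals of 65 to 81 in cKO and 67 to 88 in WT mice, against 2810 to 3296 in the reference channel. Both spots were bright with the reference RNA and dim with hippocampal RNA of either genotype, although Hoxc9 was above background throughout. At signals like those of Hoxc6 a change of a low level was not detectable.

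Along the rest of chromosome 15, 600 other protein-coding genes were tested. The median difference was −0.0052 over the 39 neighbours and 0.0114 over these 600. At an unadjusted p under 0.05 were 2 of 39 neighbours, and 28 of the 600 others, 25 higher and 3 lower. The most extreme values on the chromosome apart from Map3k12 lay far from it. Enpp2, an enzyme gene of choroid plexus and oligodendrocytes, was at 0.97 and Cox6c at −0.44, both named here after their values were seen and neither past the adjusted threshold.

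**Figure D4:**
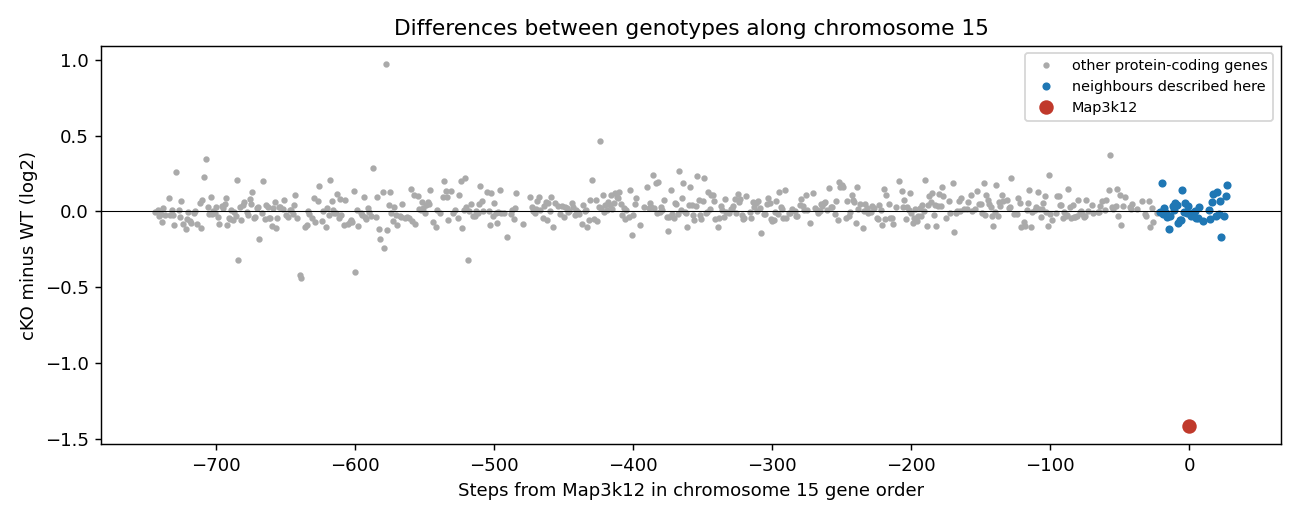
Difference between genotypes (cKO minus WT, log2) of the tested protein-coding genes of chromosome 15 in gene order, counted in steps from Map3k12. Map3k12 stands at −1.41, the neighbours lie between −0.17 and 0.18, and the grey points are the 600 other genes.

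Individual probes gave the same picture. Of the 46 kept probes of the neighbours none passed an adjusted p of 0.05 in limma, where 0.0105% of the 28682 kept probes did. The 2 probes at an unadjusted p under 0.05 were those of Ppp1r1a and Soat2, against 3.82% of all kept probes. Of the 6 genes with several kept probes, Cbx5 and Atp5g2 had probes of opposite sign, each within 0.06 of 0.

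Some neighbours varied between arrays in both channels, although the Cy3 channel held the same reference RNA throughout. For Sp7 the Cy3 signal was 51.5, 124, 111, 45 and 59 on the cKO arrays, against 128, 119, 76, 130 and 90 on the WT arrays. The Cy5 signal of Sp7 was 77, 154, 132, 68 and 67 on the cKO arrays, against 155, 155, 95, 163.5 and 105 on the WT arrays. In both channels the dimmest arrays were cKO replicates 1, 4 and 5, followed by WT replicates 3 and 5. Npff showed the same 5 arrays below the other 5, with Cy3 signals of 372 to 442 against 523 to 573.5. These dim arrays lay on slide 1, which held cKO mice alone, and slide 3, which held WT mice alone. All arrays of slide 2 were among the brighter ones, as was cKO replicate 3 of slide 1. Apart from Map3k12 itself, at 3.06, the highest over the lowest Cy3 signal was 2.89 for Sp7, 2.05 for Hoxc12, 1.94 for Zfp385a, 1.89 for Gtsf1 and 1.54 for Npff. It exceeded 1.5 for 5 of the 46 kept probes of the neighbours (10.9%) and for 18.4% of all kept probes. The log ratio and the sample channel then gave different signs for Sp7, 0.14 for the ratio and −0.32 for Cy5 alone, while Npff was at −0.01 and −0.23. Neither passed under either measure, and the source of the shared variation was not tested.

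**Figure D5:**
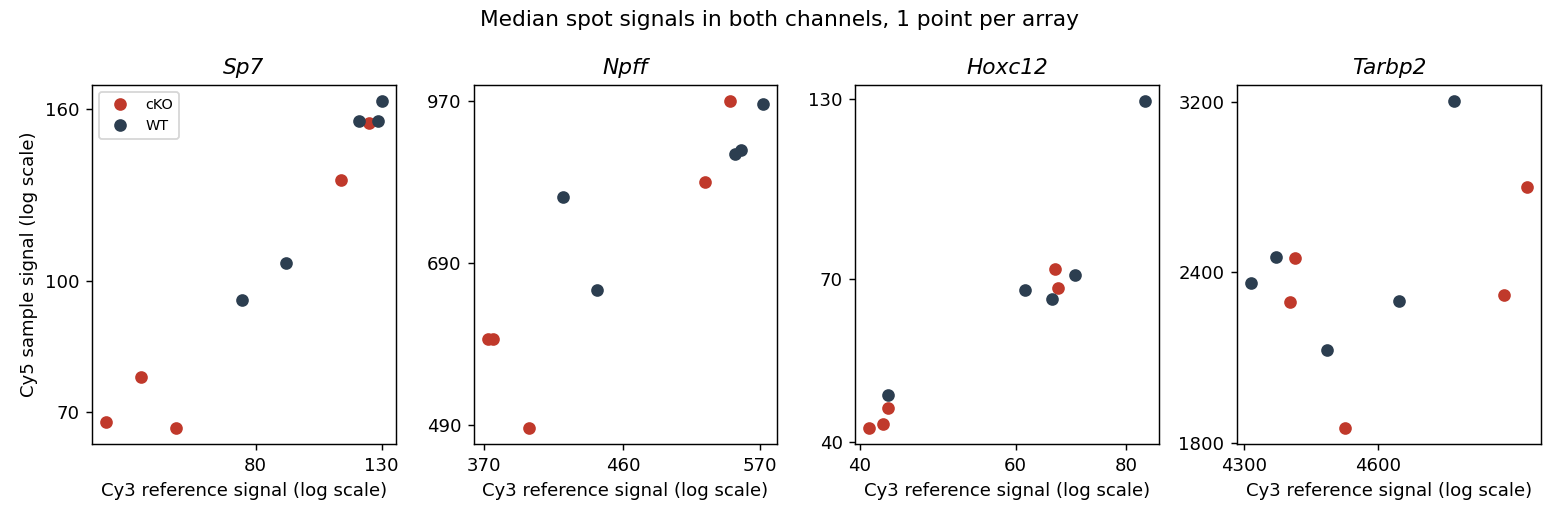
Median Cy5 signal (vertical) against median Cy3 signal (horizontal) of the spots of Sp7, Npff, Hoxc12 and Tarbp2, both on log scales, 1 point per array. Signals of Sp7, Npff and Hoxc12 vary together in both channels, and Cy3 of Tarbp2 varies little.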

How the data were processed

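Hippocampal RNA of 5 cKO and 5 WT mice was read on 10 arrays. Per the file headers, spot intensity values came from Agilent Feature Extraction 11.0.1.1. The deposited median intensity of spot and local background in both channels was used. The authors' deposited log2 table, for which the submitters' processing notes name limma, was an alternative. Its columns correlated with the log2 ratios computed here at 0.99997 or more, with medians of 0.0120 to 0.0204, so it holds log2 of sample over reference without centring of genes.

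Backgrounds were corrected with normexp (offset 50) in limma 3.58.1 and R 4.3.3, and log ratios normalised by loess within arrays. Spots marked non-uniform left before the background fit and population outliers before averaging. Of 39429 probes 28682 were kept, and the brightest probe stood for each of 23574 features. Missing values (135) were left missing. Probes were named through their unversioned accessions in a RefSeq table of GRCm38.p6 (26575 probes). The array headers name a different build, so this table gave names and the order of genes, and coordinates are printed only for RefSeq promoter windows. A moderated limma model (lmFit, eBayes) was fitted over all features, with two-sided p-values adjusted by Benjamini-Hochberg. The precision is limited by the number of arrays.

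Genes were named by rule: the 5 genes nearest on each side, those at an unadjusted p under 0.05 or with groups that do not overlap, those whose probes differ in sign, and the 5 largest differences each way. Others are named as members of role groups, for their level against the reference or for their spread. The members and lists were chosen with earlier results of these data known. The 23 alternatives covered background, filter, channel, scaling, slide, replicate number and single mice.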

Additional observations from a re-analysis of the deposited data

Results flagged for a closer look

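Over 40 groups of 5 mice, Dixon's test set 2 values apart from the other mice of their genotype, where chance alone gives about 1 in 20. Ppp1r1a had a log2 ratio of 2.59 in WT replicate 3, against 2.84 to 2.91 in the other WT mice. Gtsf1 had −0.47 in cKO replicate 5, against −0.70 to −0.69 in the other cKO mice. Without WT replicate 3 only Krt18 was at an unadjusted p under 0.05 among the neighbours (3.08% of all features), and without cKO replicate 5 only Gtsf1 was (3.60%), with groups that then did not overlap (1.41%).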

How the results depend on the processing

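No neighbour passed the adjusted threshold in any of the 23 alternatives. Over 436 values of the 19 neighbours named by rule, 407 stayed within 1 SD of the reported difference, 43 changed sign and the smallest limma adjusted p was 0.588. Map3k12 kept its direction throughout. It was not past the threshold with plain background subtraction (−1.79, adjusted p = 0.0582), with all spots in the background fit (−1.26, 0.971), with the Cy5 channel alone (−1.17, 0.101) and within slide 2 (−1.80, 0.112), so the features past the threshold numbered 0 in these 4. They numbered 2 when probes of a gene were averaged. Leaving out 1 mouse each gave −1.46 to −1.31 for Map3k12, 1 to 2 features past the threshold (2 without cKO replicate 4), 0 neighbours past it, a median of the neighbours of −0.0058 to 0.0136, 0 to 2 neighbours at an unadjusted p under 0.05 (3.08% to 4.78% of all features), and 0 to 2 whose groups did not overlap (1.18% to 1.90% of all features; 2 without cKO replicate 2, and 1 without cKO replicate 3, cKO replicate 5 or WT replicate 1). Neighbours at an unadjusted p under 0.05 numbered 3 with a background offset of 16 (4.62% of all features), 2 within slide 2 (Krt18 and Pfdn5, 8.42%), and 1 with plain subtraction, the processed signals, the authors' deposited values, all spots in the background fit and the Cy5 channel alone, and 0 with slide as a block (2.49% to 3.81% of all features in these 6). With Cy5 alone the groups of 1 neighbour (Soat2) did not overlap, as for 0.520% of all features. With the replicate block the number was 1 (2.58% of all features), and it changed no other call. Same-numbered mice did not deviate together (correlations −0.56 to 0.162), so the numbers were not taken as pairs. The causes were not tested.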
